A study of Mus musculus with 8 samples.

Results

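The genes described here are those of the major histocompatibility complex (MHC, H2 in the mouse) and of antigen presentation. They were chosen by name: every gene of the count table whose symbol starts with H2-, 44 genes, and 10 genes named one by one (Cd74, B2m, Tap1, Tap2, Tapbp, Ciita, Nlrc5, Psmb8, Psmb9 and Psmb10). These rules gave 54 of the 24940 genes in the table, of which 41 belong to the class I pathway and 12 to the class II pathway. The remaining gene, H2-Ke6, is a hydroxysteroid dehydrogenase named for its place in the H2 region and was kept apart from both classes.

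RNA sequencing was done on 8 liver samples, 4 per genotype. All mice were C57BL/6 males that carried floxed Bcl6 on both alleles (Bcl6 fl/fl) and a homozygous whole-body deletion of Fxr (Nr1h4), the nuclear bile acid receptor. The 4 control livers, called FxrKO here and numbered 1 to 4, carried these alleles alone. The other 4 livers, called Bcl6LKOFxrKO and numbered 5 to 8, also carried Albumin-Cre, which deletes the floxed repressor Bcl6 in hepatocytes. Cre was present in 1 genotype only, so that an effect of Cre itself cannot be told apart from that of Bcl6 loss, and there were no livers with intact Fxr in this comparison. Each library carries its own number in the labels, which give no age, and the study states 4 animals per group. The comparison asked which hepatic transcripts change when hepatocyte Bcl6 is deleted on top of Fxr.

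MHC class I molecules are made by nearly all nucleated cells, hepatocytes included. A heavy chain pairs with beta-2 microglobulin (B2m) and carries a peptide that the proteasome has cut, that TAP1 and TAP2 have pumped into the endoplasmic reticulum, and that tapasin (Tapbp) has helped to load. The classical heavy chains of these mice are H2-K1 and H2-D1, and the nonclassical (class Ib) heavy chains lie in the H2-Q, H2-T and H2-M clusters. MHC class II molecules are made chiefly by professional antigen presenting cells such as dendritic cells, macrophages and B cells. An alpha chain (H2-Aa) and a beta chain (H2-Ab1, H2-Eb1) travel with the invariant chain Cd74 to an endosome, where the H2-DM molecules exchange its last fragment for a peptide and the H2-O molecules restrain them. In the C57BL/6 strain the E alpha gene is defective and is named as a pseudogene, H2-Ea-ps. Transcription of class II genes depends on the coactivator Ciita, which acts through factors bound to the X and Y boxes of their promoters, and Nlrc5 plays the like part for class I.

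Promoter sequence from RefSeq (GRCm38.p6, the assembly of mm10) was found for 38 of the 54 genes, 29 of class I, 8 of class II and H2-Ke6. Among the genes with no entry were H2-Ab1, Ciita, Nlrc5, Tap2, H2-Q1 and H2-Q5. In the 250 bases before each start, 3 short motifs were searched on both strands. These were the X box core AGCAAC, the Y box ATTGG, and the core of the interferon-stimulated response element, GAAANNGAA, and none of the 3 was allowed to differ by a base. Of all 32851 promoters in the table, 12.2% held the X box core, 33.9% the Y box, 7.13% the response element core, and 4.31% both boxes. The Y box was present in all 8 class II genes and in 24 of the 29 class I genes. A gene was counted if any of its listed starts held a match, while the shares over all promoters count each start. H2-DMa had a listed start with no Y box and another with a match 198 bases before it. Both boxes were found in 4 class II genes (H2-Eb1, H2-Eb2, H2-Oa and H2-Ob) and in 0 class I genes. The response element core was found in B2m, H2-T22 and H2-T23. A match describes letters only, and its absence says nothing of a factor's binding. The stretch from 180 to 31 bases before the start is shown for 3 class II genes that were higher in the Bcl6LKOFxrKO livers, then for B2m and H2-Q10, the most counted class I genes, which did not pass the test. Capitals mark each match to a motif on either strand, so that CCAAT is a Y box on the opposite strand.
H2-Aa (chr17:34287854-34288003, minus strand): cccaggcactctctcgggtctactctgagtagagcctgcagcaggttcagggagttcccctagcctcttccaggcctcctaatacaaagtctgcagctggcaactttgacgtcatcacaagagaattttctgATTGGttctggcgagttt
H2-Eb1 (chr17:34305687-34305836, plus strand): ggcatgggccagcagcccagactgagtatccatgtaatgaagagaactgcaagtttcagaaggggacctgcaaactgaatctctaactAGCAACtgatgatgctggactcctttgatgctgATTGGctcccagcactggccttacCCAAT
H2-DMb1 (chr17:34153011-34153160, plus strand): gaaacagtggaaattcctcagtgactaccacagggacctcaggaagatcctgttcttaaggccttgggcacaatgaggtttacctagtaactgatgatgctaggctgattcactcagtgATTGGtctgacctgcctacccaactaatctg
B2m (chr2:122147507-122147656, plus strand): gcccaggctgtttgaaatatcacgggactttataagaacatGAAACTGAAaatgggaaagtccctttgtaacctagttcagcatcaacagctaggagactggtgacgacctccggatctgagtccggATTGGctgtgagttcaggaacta
H2-Q10 (chr17:35469909-35470058, plus strand): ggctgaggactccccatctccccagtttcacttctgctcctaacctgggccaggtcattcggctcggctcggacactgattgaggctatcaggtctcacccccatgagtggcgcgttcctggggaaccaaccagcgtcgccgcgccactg
In H2-Eb1 the X box core began 92 bases and the Y box 59 bases before the start, with another Y box on the opposite strand at 35 bases. The Y box began 48 bases before the start of H2-Aa and 61 bases before that of H2-DMb1. In B2m the Y box began 53 bases before the start and the response element core 139 bases before it. H2-Q10 held none of the 3 motifs.

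The libraries held 7586241 to 11839503 counted reads. Levels are given as CPM (counts scaled to a common library total) with TMM factors, and 3 reads, taken as the detection floor, were worth 0.272 to 0.375 CPM. Bcl6 itself stood at 21.2 to 65.2 CPM in FxrKO livers and 4.61 to 11.9 CPM in Bcl6LKOFxrKO livers (log2 fold change -2.72, SE 0.40, adjusted p = 0.00123). Nr1h4, the gene of Fxr, still had reads in all 8 livers, at 56.7 to 62.6 CPM in FxrKO livers and 39.4 to 48.1 CPM in Bcl6LKOFxrKO livers (log2 fold change -0.46, SE 0.10, adjusted p = 0.00497). Counts over the whole gene do not show which exons the reads came from, so they do not check the deletion. Differences were tested with the edgeR quasi-likelihood test, and a gene was called at a Benjamini-Hochberg adjusted p under 0.05 over all 12340 genes with enough counts to test. Of these genes 16.2% were called higher and 13.5% lower in Bcl6LKOFxrKO livers (29.7% in either direction), so that a single called gene is a common event in this comparison. In 16.1% of them all 4 Bcl6LKOFxrKO livers lay above all 4 FxrKO livers, so that a single gene without overlap is common too. Alb made up 4.04 to 5.16% of the reads of the FxrKO livers and 11.9 to 13.2% of those of the Bcl6LKOFxrKO livers. Scaling by total counts alone, without the TMM factors, lowered the log2 fold changes (median shift -0.159) and turned the split of calls from 1994 higher and 1665 lower to 1404 higher and 2949 lower. Values on that scale are therefore given below where they change a direction or a call.

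Of the 54 genes, 35 had enough counts to be tested, 26 of class I, 8 of class II and H2-Ke6. Class II transcripts were higher in the Bcl6LKOFxrKO livers as a group. The 6 class II genes that reached the filter level of 1.04 CPM in all 4 FxrKO livers were all called higher, against 16.2% of all tested genes. Of all 8 tested class II genes, 7 were called higher and 0 lower (0 lower also at an unadjusted p under 0.05, in DESeq2 and in limma voom). Of the 26 tested class I genes, 5 (19.2%) were called higher and 0 lower, and among the 24 that reached the filter level in all 4 FxrKO livers, 4 (16.7%) were called higher, which is close to the share over all genes. At an unadjusted p under 0.05, 13 class I entries were higher and 0 lower, a count with no share over all genes beside it. They include H2-Q6 with H2-Q8 and H2-T22 with H2-T9, pairs that each share a locus. DESeq2 called 6 class I genes higher and 0 lower, among them H2-M2 and H2-Q1, which the edgeR filter left out. With limma voom 5 were called higher and 1 lower. The share over all genes is not given for these counts either, so that they do not set class I against other genes. The median log2 fold change was 1.20 for class II and 0.31 for class I, and 0.01 over all tested genes (1.03, 0.15 and -0.15 with total counts alone). The remaining tested class II genes, Ciita and H2-Ob, and the class I genes H2-Q5 and H2-T-ps, missed the filter level in at least 1 FxrKO liver and entered the test through the Bcl6LKOFxrKO livers. The calls of Ciita and H2-T-ps therefore give no added support. In bulk tissue, fewer cells of a type and less RNA per cell cannot be told apart, which bears on all of these values.

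All 3 classical class II chains that could be tested were called higher, against 16.2% of all tested genes. H2-Eb1, an E beta chain, stood at 30.3, 18.7, 18.2 and 20.1 CPM in FxrKO livers 1 to 4 and at 46.9, 80.9, 51.1 and 63.6 CPM in Bcl6LKOFxrKO livers 5 to 8. Its log2 fold change was 1.47 (SE 0.20, adjusted p = 0.000189). Liver 1 was the highest of its group and liver 6 of the other, and the groups did not overlap. H2-Aa, the A alpha chain, was measured at 38.4, 25.2, 22.6 and 25.8 CPM in FxrKO livers and at 48.3, 84.6, 61.8 and 61.3 CPM in Bcl6LKOFxrKO livers, a log2 fold change of 1.19 (SE 0.19, adjusted p = 0.000601). H2-Ab1, its beta chain partner, was measured at 34.7, 22.1, 19.7 and 17.3 CPM and at 43.7, 76.2, 48.5 and 64.3 CPM, a log2 fold change of 1.31 (SE 0.23, adjusted p = 0.00153). In both genes the highest FxrKO liver was again liver 1, the highest Bcl6LKOFxrKO liver was liver 6, and the groups did not overlap. H2-Aa lies at chr17:34282751-34287771, on the minus strand of mm10, next to H2-Ab1 and H2-Eb1. Neither the pseudogene H2-Ea-ps, with 0 reads in all 8 livers, nor H2-Eb2, with no liver over 3 reads, could be tested.

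Of 4 tested genes that load class II molecules, 3 (75%) were called higher, against 16.2% of all tested genes. Cd74, the invariant chain and the most counted class II gene, stood at 90.9, 76.5, 58.3 and 60.8 CPM in FxrKO livers and at 126, 217, 137 and 179.97 CPM in Bcl6LKOFxrKO livers. Its log2 fold change was 1.20 (SE 0.19, adjusted p = 0.000516), and every Bcl6LKOFxrKO liver lay above every FxrKO liver. H2-DMa stood at 3.43, 3.999, 3.65 and 3.69 CPM against 5.74, 9.47, 4.77 and 7.63 CPM (log2 fold change 0.89, SE 0.23, adjusted p = 0.0107). Its 4 FxrKO livers lay close together and below all 4 Bcl6LKOFxrKO livers. H2-DMb1 stood at 4.47, 2.87, 2.58 and 2.37 CPM against 4.03, 6.92, 7.40 and 5.45 CPM, and FxrKO liver 1 exceeded Bcl6LKOFxrKO liver 5. Its log2 fold change was 0.95 (SE 0.26, adjusted p = 0.0163), with adjusted p-values of 0.0510 and 0.0520 when liver 3 or liver 4 was left out. H2-DMb1 shared 13.7% of its 100-base windows with its near copy H2-DMb2, so that unique alignment discards part of the reads of both. H2-DMb2 and H2-Oa were too low to be tested, at 0.236 ± 0.152 and 0.175 ± 0.204 CPM in FxrKO livers (SD, n = 4) and 0.605 ± 0.192 and 0.692 ± 0.405 CPM in Bcl6LKOFxrKO livers. H2-Ob, the beta chain of H2-O, stood at 0.312, 0.9997, 0.860 and 1.32 CPM against 1.41, 1.33, 2.24 and 1.998 CPM. Its groups did not overlap, but it was not called (log2 fold change 0.99, SE 0.38, adjusted p = 0.0669).

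Ciita, the class II transactivator, was called higher with the widest error of the class (log2 fold change 1.53, SE 0.47, adjusted p = 0.0281). It stood at 0.833, 1.87, 0.107 and 0.568 CPM in FxrKO livers and at 1.81, 3.03, 2.34 and 2.36 CPM in Bcl6LKOFxrKO livers. FxrKO liver 2 lay within the range of the Bcl6LKOFxrKO livers, so that the groups overlapped. The call was lost when any 1 of livers 1, 3, 4, 6 or 8 was left out (adjusted p 0.0545 to 0.0799), and it rests on few reads. Ciita reached the filter level in 1 FxrKO and 4 Bcl6LKOFxrKO livers, so its call gives no added support. H2-Aa, H2-Ab1, H2-Eb1, Cd74 and H2-DMa were called in all 16 fits, the main one and 15 alternatives.

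**Figure D1:**
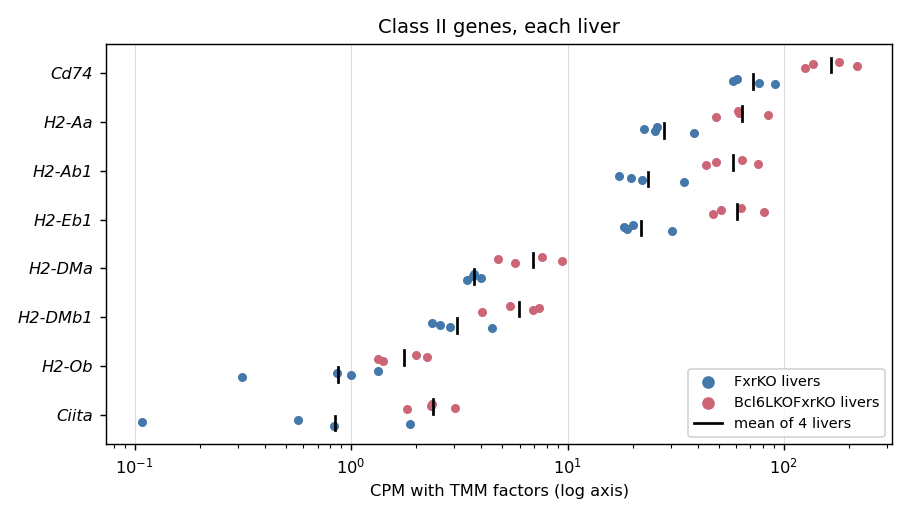
Level of each tested class II gene in each liver, in CPM with TMM factors on a log axis. Points are livers, black ticks the mean of 4 livers. The 4 Bcl6LKOFxrKO livers lay above all 4 FxrKO livers for Cd74, H2-Aa, H2-Ab1, H2-Eb1, H2-DMa and H2-Ob, while the groups overlapped for H2-DMb1 and Ciita. Of all tested genes, 16.1% showed such a separation.

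Class I was far more abundant. Per kilobase of transcript and with 1 entry per locus, the highest mean levels in FxrKO livers were those of H2-Q10 (1746 CPM per kb), B2m (1253), H2-K1 (629), H2-D1 (268) and H2-T23 (141), against 51.0 CPM per kb for Cd74 and 26.4 for H2-Aa. The first 4 of these genes were not called in either direction. B2m, the light chain shared by all class I molecules, stood at 1083, 1076, 1073 and 1040.1 CPM in FxrKO livers and at 1226, 1281, 1072 and 878 CPM in Bcl6LKOFxrKO livers. Its log2 fold change was 0.06 (SE 0.13, adjusted p = 0.762), and the Bcl6LKOFxrKO livers lay on both sides of the narrow FxrKO range. H2-Q10, a secreted class Ib chain made mainly by liver, stood at 2713, 2534, 2758 and 2221 CPM against 2416, 2263, 2040.2 and 3280.2 CPM. It alone held 57.0 to 59.7% of the CPM of class I heavy chains in FxrKO livers and 53.2 to 62.3% in Bcl6LKOFxrKO livers, and its log2 fold change was -0.03 (SE 0.16, adjusted p = 0.897).

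The classical heavy chains H2-K1 and H2-D1 had log2 fold changes of opposite sign, and neither was called. H2-K1 stood at 1085, 1044, 1081 and 906 CPM in FxrKO livers and at 728, 954, 709 and 965 CPM in Bcl6LKOFxrKO livers. The groups overlapped, and it was not called (log2 fold change -0.29, SE 0.14, adjusted p = 0.127), although it was called lower with limma voom (-0.38, adjusted p = 0.0208) and with total counts alone (-0.46, adjusted p = 0.0156). H2-D1 stood at 530.1, 438, 448 and 434 CPM against 480.2, 568, 429 and 552 CPM (log2 fold change 0.13, SE 0.13, adjusted p = 0.455; -0.03 with total counts alone). The ratio of H2-K1 to H2-D1 reads, which needs no scaling between libraries and was chosen after the values were seen, was 2.05, 2.38, 2.41 and 2.09 in FxrKO livers and 1.52, 1.68, 1.65 and 1.75 in Bcl6LKOFxrKO livers. The 2 sets of ratios did not overlap. The entry H2-L lies within the span of H2-D1 on the same strand, and its reads are also counted there.

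Of the 15 class Ib genes tested, 3 (20%) were called higher, near the 16.2% of all tested genes. H2-T23, the Qa-1 chain recognised by receptors of natural killer cells, stood at 190.2, 170.2, 186 and 192 CPM in FxrKO livers and at 225, 278, 216 and 254 CPM in Bcl6LKOFxrKO livers. The groups did not overlap, and the log2 fold change was 0.40 (SE 0.11, adjusted p = 0.0193), or 0.23 with total counts alone, where it was not called (adjusted p = 0.111). The call was also lost without liver 2 (adjusted p = 0.0706) and without liver 6 (0.0515), and 7.28% of its 100-base windows occur in other genes. H2-Q4 stood at 23.4, 24.5, 26.1 and 26.4 CPM against 27.2, 36.5, 40.0 and 44.0 CPM, again without overlap (log2 fold change 0.56, SE 0.14, adjusted p = 0.0116). It was called in all 16 fits, and 21.0% of its exon length is overlapped by a gene on the opposite strand, whose reads cannot be told apart from its own when strand is not used.

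H2-T-ps, an entry of the T cluster named as a pseudogene but listed as protein-coding, had the largest log2 fold change of all 35 tested genes. It stood at 0.833, 0.4999, 0.430 and 0.189 CPM in FxrKO livers and at 4.63, 4.25, 4.48 and 6.54 CPM in Bcl6LKOFxrKO livers. Its fitted log2 fold change was 3.34 (SE 0.35, adjusted p = 1.5e-05). It reached the filter level in 0 FxrKO and 4 Bcl6LKOFxrKO livers and so entered the test only through the group where it was high, and its FxrKO levels lay near the floor of 3 reads, so the call gives no added support. Of its 100-base windows 5.37% also occur in other genes, chiefly H2-Q1.

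The same direction was seen in 2 class Ib genes that the filter on low counts left out. H2-M2 had 5, 0, 0 and 1 reads in FxrKO livers and 18, 19, 18 and 10 reads in Bcl6LKOFxrKO livers. H2-Q1 had 1, 4, 0 and 5 reads against 24, 20, 8 and 19 reads. The groups did not overlap in either gene, and both were singled out after their values were seen. Fitted without the filter, both were called (edgeR adjusted p = 0.00071 for H2-M2 and 0.00158 for H2-Q1). Because both were picked for this difference and their FxrKO reads lay near the floor, these calls give no added support. No 100-base window of H2-M2 occurred in another gene, while 13.1% of those of H2-Q1 did.

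The other class Ib genes tested were not called. H2-T22, whose product and that of H2-T10 bind certain gamma delta T cell receptors, stood at 80.6 ± 7.45 CPM in FxrKO livers (SD, n = 4) and 98.2 ± 8.56 CPM in Bcl6LKOFxrKO livers without overlap (log2 fold change 0.28, SE 0.11, adjusted p = 0.0701). H2-Q5 (1.09 ± 0.210 against 1.81 ± 0.212 CPM, adjusted p = 0.0665) also showed no overlap. H2-T10 (2.14 ± 0.563 against 3.43 ± 0.833 CPM, adjusted p = 0.0736) and H2-K2 (10.9 ± 3.37 against 15.9 ± 2.99 CPM, adjusted p = 0.0704) did overlap. H2-M3, which presents formylated peptides, stood at 2.77 ± 0.591 and 4.101 ± 0.927 CPM (adjusted p = 0.111), and H2-T24 at 2.15 ± 0.857 and 3.04 ± 0.878 CPM (adjusted p = 0.289). H2-Q6 stood at 3.44 ± 0.412 and 5.02 ± 1.21 CPM (adjusted p = 0.0843), and H2-Q7, a Qa-2 chain, at 12.6 ± 2.37 and 13.4 ± 1.79 CPM (adjusted p = 0.710). Between 12.9 and 21.9% of the 100-base windows of H2-Q5, H2-T22, H2-Q6 and H2-Q7 occur in other genes, so that these values are uncertain. H2-Q8, H2-Q9 and H2-T9 share a locus with H2-Q6, H2-Q7 and H2-T22 and gave nearly the same values, so that the 41 class I entries stand for 37 loci, of which 22 were tested and 5 called higher. Of the remaining 15 untested class I entries, 9 had 0 reads in all 8 livers, namely H2-M1, H2-M9, H2-M11 and the 6 H2-M10 genes. H2-M5, H2-Q2 and H2-T3 had no liver over 3 reads, and H2-Bl stood at 0.710 ± 0.412 and 0.556 ± 0.283 CPM.

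**Figure D2:**
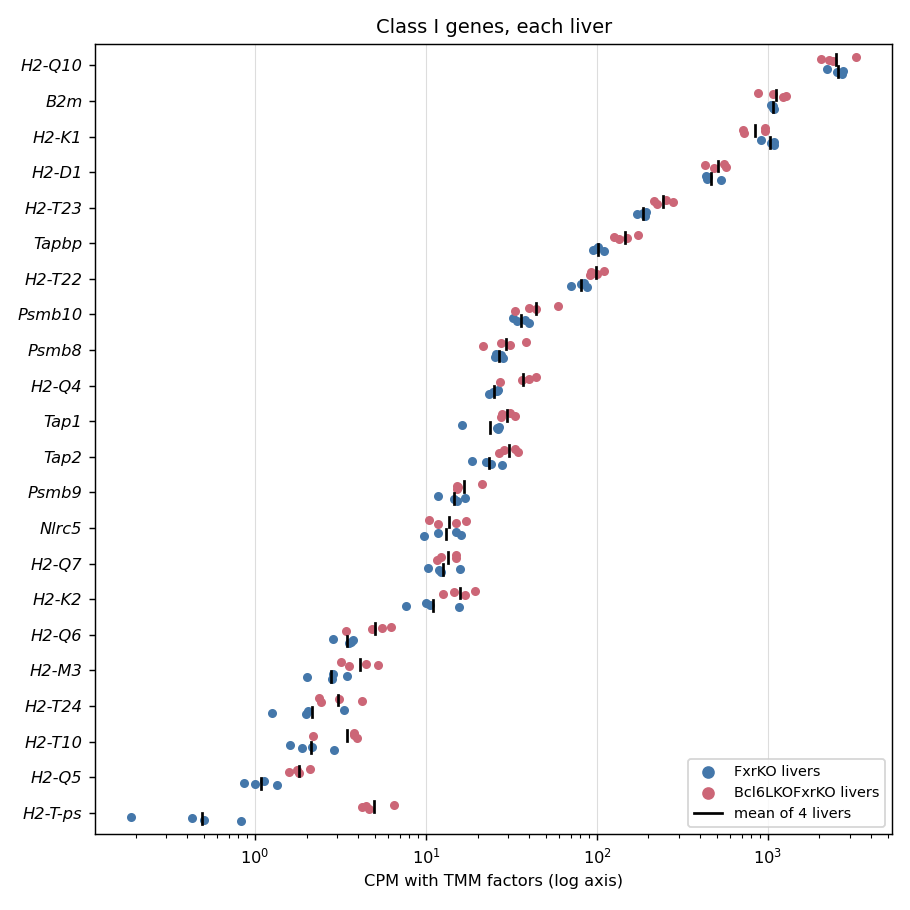
Level of each tested class I gene in each liver, in CPM with TMM factors on a log axis, with 1 entry per locus. Points are livers and black ticks the mean of 4 livers. H2-Q10, B2m, H2-K1 and H2-D1 overlapped between the groups at the top of the range, while H2-T-ps at the bottom rose from 0.488 to 4.97 CPM on average.

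Of the 6 genes that supply peptides to class I molecules, 2 (33.3%) were called higher, against 16.2% of all tested genes. Their median log2 fold change was 0.30, against 0.31 for class I (0.14 and 0.15 with total counts alone). Tapbp, tapasin, stood at 109.9, 94.6, 99.2 and 101 CPM in FxrKO livers and at 134, 149, 126 and 173 CPM in Bcl6LKOFxrKO livers. The groups did not overlap, and the call held in all 16 fits (log2 fold change 0.52, SE 0.12, adjusted p = 0.00549). Genes on the opposite strand overlap 14.6% of the exon length of Tapbp and 15.05% of that of Tap2. Such overlap also covers 11.4% of Psmb8, 15.7% of Psmb9 and 7.18% of Tap1, where Psmb9 and Tap1 overlap each other. Tap2, a chain of the peptide pump, stood at 27.8, 24.0, 22.6 and 18.4 CPM against 26.8, 34.6, 28.4 and 33.1 CPM, and FxrKO liver 1 exceeded Bcl6LKOFxrKO liver 5. Its call lay at the threshold (log2 fold change 0.41, SE 0.14, adjusted p = 0.0498) and was made in 5 of 16 fits. With total counts alone Tap2 was not called (0.24, adjusted p = 0.197). Tap1, the other chain, stood at 26.2, 25.9, 26.5 and 16.3 CPM against 27.4, 33.1, 27.8 and 30.8 CPM, without overlap, and was not called (log2 fold change 0.33, SE 0.16, adjusted p = 0.135). The immunoproteasome subunits were not called. Psmb8 had means of 26.7 ± 1.47 and 29.5 ± 6.98 CPM (SD, n = 4, adjusted p = 0.528), Psmb9 of 14.6 ± 2.13 and 16.8 ± 2.99 CPM (adjusted p = 0.362), and Psmb10 of 36.2 ± 3.53 and 43.9 ± 10.8 CPM (adjusted p = 0.207). All 3 overlapped between the groups. Nlrc5, the class I transactivator, stood at 9.78, 15.995, 11.8 and 14.9 CPM against 11.7, 15.05, 17.1 and 10.4 CPM (log2 fold change 0.05, SE 0.20, adjusted p = 0.879). H2-Ke6, the enzyme of the region that presents no antigen, stood at 62.0 ± 6.74 and 61.1 ± 13.3 CPM (adjusted p = 0.935), and 99.9% of its exon length is shared with another annotated gene on the same strand.

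**Figure D3:**
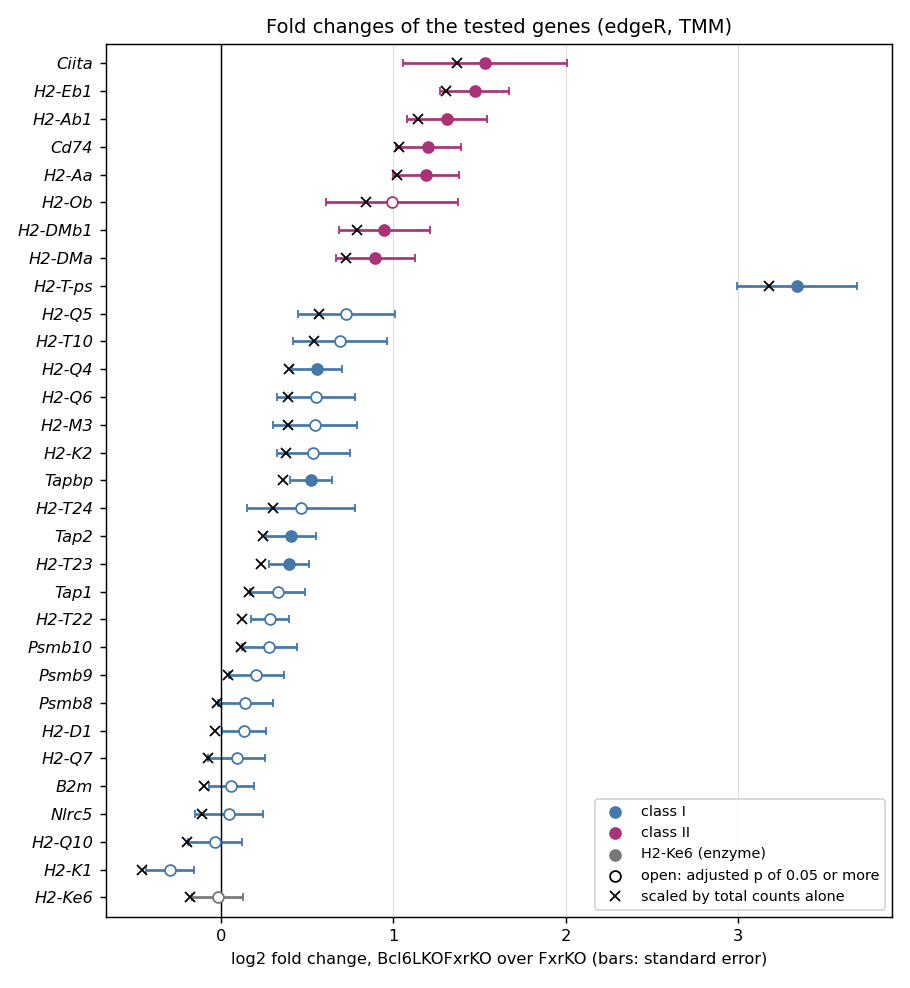
Log2 fold change of each tested gene, Bcl6LKOFxrKO over FxrKO, with its standard error as a bar and 1 entry per locus. Filled circles were called, open circles were not, and crosses give the value with total counts alone. Class II genes sit between 0.89 and 1.53, while class I genes other than H2-T-ps sit between -0.29 and 0.73.

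Summed over loci, class I levels overlapped between the groups and class II levels did not. The class I sum was 5682 ± 389 CPM in FxrKO livers (SD, n = 4) and 5705 ± 659 CPM in Bcl6LKOFxrKO livers. The class II sum was 203, 153, 127 and 133 CPM in FxrKO livers and 279, 481, 317 and 387 CPM in Bcl6LKOFxrKO livers, with no overlap. Class II CPM amounted to 3.38, 2.71, 2.13 and 2.57% of class I CPM in FxrKO livers and to 5.06, 8.22, 6.42 and 5.95% in Bcl6LKOFxrKO livers, a share that does not depend on scaling between libraries. No test was made on these sums.

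Of 46 tested genes of the 6 lists of other genes of antigen presentation, 8 (17.4%) were called higher and 4 (8.7%) lower, against 16.2% and 13.5% of all tested genes. Of 8 tested genes that process antigen for class II, 4 were called higher and 1 lower. The cathepsins Ctsb (839 ± 62.0 against 1368 ± 101 CPM, log2 fold change 0.70) and Ctss, which cuts the invariant chain (39.4 ± 6.22 against 64.8 ± 9.89 CPM, log2 fold change 0.72), rose, as did Ctsd and Ifi30. March8, a ubiquitin ligase that can remove class II from the cell surface, fell by 0.82 on the log2 scale (124 ± 7.21 against 70.01 ± 7.96 CPM). Of 16 tested genes of transcription and interferon gamma signalling, 2 were called higher and 2 lower (12.5% each way, near the shares over all genes). Rfx5, a subunit of the factor that binds the X box, rose (9.65 ± 1.17 against 16.05 ± 2.52 CPM, log2 fold change 0.74, adjusted p = 0.00375), as did Irf8, while Irf2 and Nfyb, a subunit of the Y box factor, fell. The other subunits of the X box factor, Rfxap (log2 fold change -0.30, adjusted p = 0.203) and Rfxank (-0.02, adjusted p = 0.930), were not called by edgeR. Nor was Nfya, another subunit of the Y box factor (-0.04, adjusted p = 0.873). Irf1 was not called (adjusted p = 0.405). Ifng was too low to be tested, at 0.0260 ± 0.0520 and 0.0244 ± 0.0487 CPM. Of 11 loading partners of class I, 1 was called higher (Thop1) and 1 lower (the trimming peptidase Erap1, adjusted p = 0.0461), and of 3 constitutive proteasome subunits, 1 (Psmb5). Of 5 tested class I-like genes outside the region, 0 were called by edgeR or DESeq2 and 1 by limma voom, with 2 lower at an unadjusted p under 0.05. Of 3 tested costimulation genes, 0 were called by edgeR, DESeq2 or limma voom, with 2 higher at an unadjusted p under 0.05.

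**Figure D4:**
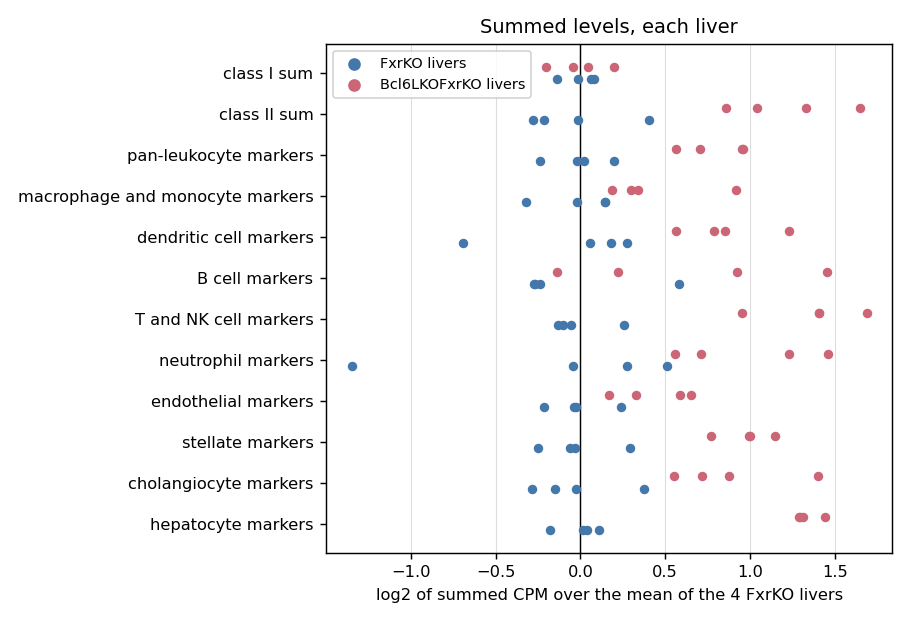
Summed CPM of class I, of class II and of each list of cell type markers in each liver, as log2 over the mean of the 4 FxrKO livers. Points are livers. The class II sum and 8 of the 10 marker lists were higher in all 4 Bcl6LKOFxrKO livers than in all 4 FxrKO livers, while the class I sum and the B cell and endothelial lists overlapped. Most of the hepatocyte sum is Alb.

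Some markers of leukocytes were higher along with class II, as were markers of other cell types. Over all tested genes 16.2% were called higher, so that 1 call in a list this short is a common event. The 5 pan-leukocyte markers summed to 41.8 to 56.6 CPM in FxrKO livers and 72.8 to 95.9 CPM in Bcl6LKOFxrKO livers, and 4 of the 5 were called higher, Coro1a most (log2 fold change 1.55). Of 7 dendritic cell markers, 3 were tested and 1, Itgax, was called (log2 fold change 1.59), and the list summed to 4.84 to 9.46 against 11.5 to 18.3 CPM. Of 15 macrophage and monocyte markers, 14 were tested and 6 called higher, Lyz2 and Cd68 among them. Others, Clec4f, Timd4 and Vsig4 among them, were not called, and kinds of macrophage were not compared. The list summed to 549 to 758 against 780.3 to 1292 CPM. B cell markers summed to 3.87 to 6.99 against 4.25 to 12.8 CPM with 0 of 2 tested genes called by edgeR, DESeq2 or limma voom and 1 higher at an unadjusted p under 0.05, and none of the 10 T and NK cell markers was high enough for the edgeR test (2.75 to 3.60 against 5.84 to 9.71 CPM), although DESeq2, which applied no such filter, called 3 of them higher. Neutrophil markers summed to 2.15 to 7.81 against 8.06 to 15.05 CPM, stellate cell markers to 133 to 193 against 269 to 349 CPM with 4 of 5 called, cholangiocyte markers to 41.5 to 65.7 against 74.1 to 134 CPM with 2 of 4 called, and endothelial markers to 115 to 158 against 150.4 to 210.1 CPM with 1 of 5 called. Of 5 hepatocyte markers, Alb, which made up most of their sum, rose, Ttr fell, and Apoa1, Hnf4a and Serpina1a were not called. The summed CPM of H2-Aa, H2-Ab1, H2-Eb1 and Cd74 was 3.43, 2.85, 2.84 and 2.55 times that of the pan-leukocyte markers in FxrKO livers and 3.63, 4.81, 3.71 and 3.85 times in Bcl6LKOFxrKO livers. These ratios did not overlap, although the nearest were 3.43 and 3.63, and they depend on the list chosen. Between the group means the 4 class II genes rose 2.40 times and the T and NK cell markers 2.62 times. The B cell, dendritic cell, macrophage and neutrophil markers rose 1.38 to 2.05 times, and the pan-leukocyte markers 1.75 times. Rises were also seen outside leukocytes, of 1.98 times for stellate cell, 1.90 for cholangiocyte and 1.36 for endothelial markers. The hepatocyte markers, mostly Alb, rose 2.52 times. No marker of any list was at 0 in all 8 livers. The part of each cell type in the class II difference was not tested.

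Other genes of the H2 region were called in both directions. Of the 54 genes, 49 lie on chromosome 17, between 33919478 and 37483554 of mm10. Among 84 other tested genes within those bounds, 14 (16.7%) were called higher and 5 (5.95%) lower, against 16.2% and 13.5% of all tested genes, and their log2 fold changes had a median of 0.10.

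**Figure D5:**
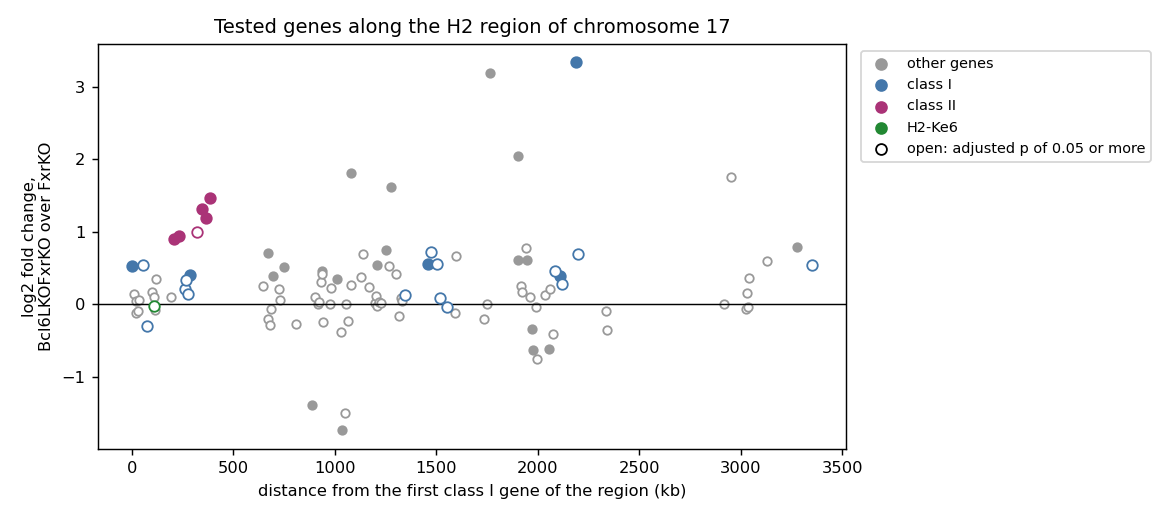
Log2 fold change of every tested gene of the H2 region against its distance in kilobases from Tapbp, the first class I gene of the region. Filled points were called. The class II genes of the region lie together between about 0.89 and 1.47. Class I genes lie between -0.29 and 0.73, with H2-K1 and H2-Q10 below 0, apart from H2-T-ps at 3.34. Other genes lie on both sides of 0.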

How the data were processed

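Polyadenylated RNA from 8 mouse livers was sequenced by the authors as 100 base single-end reads from a stranded kit. Per the submitters' processing notes, reads were aligned to mm10 with STAR 2.5.2, and the study's methods keep reads with 1 location and at most 4 mismatches. The deposited table holds raw read counts per gene over exons from HOMER 4.10, 1 row per gene. The command in its header sets no strand option, so overlapping genes on opposite strands cannot be told apart, and reads of near copies are lost. The table's length column, also as deposited, served only to give CPM per kb.

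Counts were fitted with edgeR 4.0.16 in R 4.3.3 (filterByExpr with a minimum count of 10, TMM, robust quasi-likelihood, genotype alone), and p-values were adjusted over 12340 genes. DESeq2 1.42.0, which the study used, and limma voom 3.58.1 were alternatives, and the fit was tested on simulated data. Totals of 7586241 to 11839503 reads limit the precision of genes near the floor of 3 reads, and the floor covers counting error only. Replicate pairs differed beyond counting noise (chi-square per degree of freedom 10.8 to 50), so no library was counted as a repeat. Summed levels used 1 entry per locus. Genes with a mean of at least 10 counts were named with their values, and of each pathway and marker list the called genes with the smallest adjusted p and the most counted gene were eligible. Genes, lists and motifs were chosen with earlier results of these data known. Shared 100-base windows were counted as exact matches among GENCODE transcripts of the same assembly.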

Additional observations from a re-analysis of the deposited data

Results flagged for a closer look

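In 6 of the 76 groups of 4 livers checked, 1 liver stood apart from the other 3, by the gap to its nearest neighbour as a share of the group's range. Chance gives about 5% of such groups. Psmb9 in liver 8 was at 21.2 CPM against 15.2 to 15.4 CPM in the other Bcl6LKOFxrKO livers (gap 0.964 of the range). H2-T10 in liver 6 was at 2.18 CPM against 3.80 to 3.93 CPM (0.926). H2-T-ps in liver 8 was at 6.54 CPM against 4.25 to 4.63 CPM (0.832). Among FxrKO livers, Tap1 in liver 4 was at 16.3 CPM against 25.9 to 26.5 CPM (0.934), H2-D1 in liver 1 at 530.1 CPM against 434 to 448 CPM (0.854), and H2-Eb1 in liver 1 at 30.3 CPM against 18.2 to 20.1 CPM (0.844).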

How the results depend on the processing

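The class II genes called higher, Ciita among them, numbered 7 in the main fit. They numbered 6 or 7 in the alternatives run on all 8 livers. With 1 liver left out they numbered 5 to 7, and 0 were called lower in any alternative. Scaled by total counts alone, 2949 genes were called lower in all, 3 class I genes were called higher and 1, H2-K1, lower, the log2 ratio of summed class I was -0.16 and the class I median 0.15. These shifts follow from the scaling, which lowers the median of all genes. With limma voom 1 class I gene, H2-K1, was called lower, and at a log2 fold change above 0.5 the called class I genes numbered 3. With 1 liver left out, 5 to 9 class I genes were called higher, 9 of them without FxrKO liver 1. Directions turned for genes near 0. With total counts alone, B2m was at -0.10, Psmb8 at -0.0218, Nlrc5 at -0.11, H2-D1 at -0.0314, H2-Q7 at -0.0722 and H2-Q9 at -0.0757. With limma voom Psmb8 was at -0.0295, and with at least 10 counts in every liver H2-Ke6 at 0.0021. With 1 liver left out, log2 fold changes ran from -0.0213 to 0.16 for B2m, -0.00987 to 0.27 for Psmb8, -0.0867 to 0.16 for Nlrc5, -0.19 to 0.0551 for H2-Q10, -0.00179 to 0.21 for H2-Q9 and -0.18 to 0.0656 for H2-Ke6. Counting shared loci once, or summing both entries of each pair, the alternatives added after seeing the data, left these results on the same side. Of 521 alternatives for single genes, 466 kept direction and call, 23 turned, 21 lost and 11 gained a call, and the cause was not tested. No paired analysis was possible because the groups share no replicate numbers. The numbers in the labels run on between 3 FxrKO and 3 Bcl6LKOFxrKO livers, but no label says that these share a litter or day, and no block was fitted on them. Depth limits H2-Ob, Ciita, H2-M2, H2-Q1 and the genes at 0.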
